A study of Homo sapiens with 45 samples.

Results

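The catalytic inhibitor BRM014 lowered a set of 74 genes within 6 h in each of 4 human T-cell acute lymphoblastic leukaemia (T-ALL) lines, Jurkat, CCRF-CEM, KOPT-K1 and TALL-1. A gene was chosen if its mean log2(TPM + 1) over 3 BRM014 libraries lay at least 0.8 below the mean over 3 DMSO libraries in every line, with a mean DMSO level of at least 1 TPM (transcript abundance scaled to gene length and to the library) in every line. Of 38557 genes, 11835 met the DMSO level, and 86 of these passed the threshold in all 4 lines. A further 12 genes were left out by name (BCL11B, CD6, CHD4, CXCR4, DTX1, GIMAP1, GIMAP1-GIMAP5, GIMAP2, GIMAP5, GIMAP6, GIMAP7 and NOTCH3), which left 74. The genes were thus chosen by their measured 6 h change, and their 6 h values are given as a description with no test. The genes were then followed in 21 Jurkat libraries that played no part in the choice.

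Poly(A) RNA was sequenced in 45 libraries, 3 labelled biological replicates in each of 15 groups. At 6 h each of the 4 lines had a group given 1 uM BRM014 and a group given 0.01% DMSO. Jurkat had the same groups again at 8 d. Cas9-expressing Jurkat cells made up 5 more groups, transduced with guides against the AAVS1 site (gAAVS1, the control), ARID1A (gARID1A), ARID1A and ARID1B (gARID1A_1B), SMARCA4 (gSMARCA4), or SMARCA4 and SMARCA2 (gSMARCA4_A2). These cells were selected with puromycin for 4 days, and RNA was taken on day 10. Jurkat RNA was extracted and built into libraries with other kits than RNA of the other lines, and the Jurkat kit did not keep strand.

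The canonical BAF complex (cBAF) is a nucleosome remodeller. Its motor is SMARCA4 or SMARCA2, ARID1A or ARID1B is the subunit that marks the complex as cBAF, and BRM014 blocks the ATPase activity of both motors. In lymphoid cells the complex keeps enhancers and promoters open for transcription factors. T cells read antigen through the T cell receptor, whose signal passes from the kinase ZAP70 to membrane adaptors, calcium channels and the actin cytoskeleton, and is held back by inhibitory receptors such as CD5.

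At 6 h the size of the fall differed between lines, a description that was not tested. In DMSO the mean log2(TPM + 1) of the 74 genes was 4.62 in Jurkat, 5.27 in CCRF-CEM, 5.23 in KOPT-K1 and 5.00 in TALL-1. A lower level compresses a change on this scale, and Jurkat libraries were made with other kits. The median change of the 74 genes was -1.08 on the log2(TPM + 1) scale in Jurkat, -1.48 in CCRF-CEM, -1.25 in KOPT-K1 and -1.61 in TALL-1, against medians between 0.040 and 0.076 over all 11835 genes. TALL-1 was the line with the deepest fall for 44 of the 74 genes, CCRF-CEM for 16, KOPT-K1 for 8 and Jurkat for 6. In no line did the BRM014 libraries of a chosen gene overlap its DMSO libraries, for any of the 74. The same libraries chose the genes by a gap of at least 0.8, which makes overlap unlikely. The share of all 11835 genes without overlap was not counted. As background to the rule, 2.53% of the 11835 genes lay at or below -0.8 in Jurkat, 4.71% in CCRF-CEM, 3.13% in KOPT-K1 and 5.69% in TALL-1. Before the exclusion by name, 539 genes passed the threshold in 1 line only, 266 in 2, 162 in 3 and 86 in all 4. In the opposite direction, 40 genes lay at or above +0.8 in all 4 lines. Just inside the threshold were the exchange factor RAPGEF5 (-0.80 in CCRF-CEM), the fatty acid desaturase FADS1 (-0.80 in Jurkat) and the ubiquitin-conjugating enzyme UBE2Q2 (-0.81 in TALL-1). Just outside were UBASH3B (-0.80 in Jurkat), PALD1 (-0.79 in Jurkat) and PPIF (-0.79 in KOPT-K1).

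**Figure D1:**
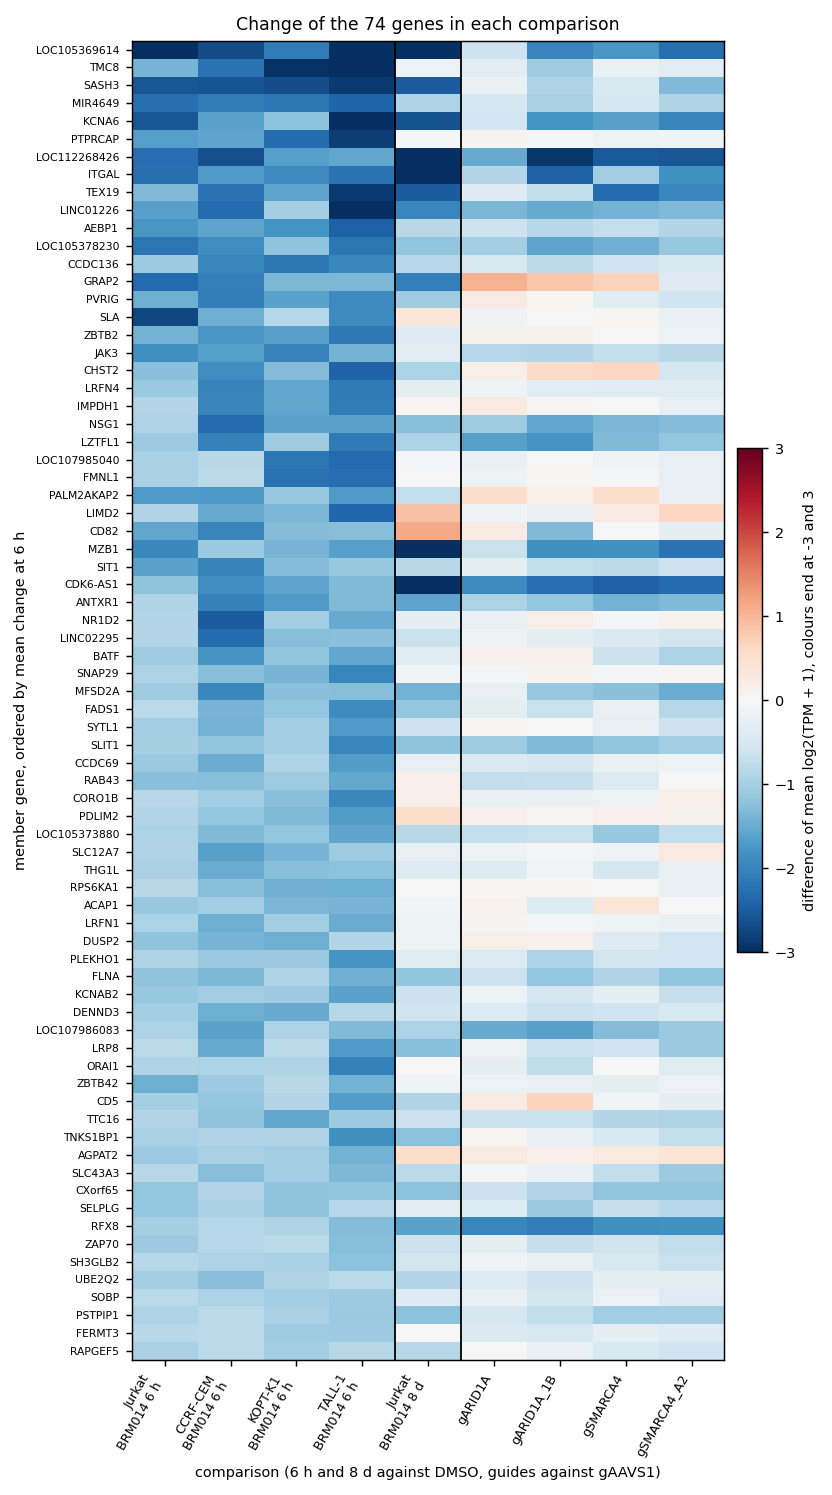
Difference of mean log2(TPM + 1) for each of the 74 genes (rows, ordered by the mean of the 4 lines at 6 h) in 9 comparisons (columns), with blue for lower and red for higher and colours ending at -3 and 3. The 4 left columns chose the genes and are blue throughout, while the 8 d and guide columns, which did not, hold deep blue for MZB1 and ITGAL, red for CD82 at 8 d and red for GRAP2 in gARID1A, gARID1A_1B and gSMARCA4.

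SASH3, an adaptor protein of lymphocytes encoded on the X chromosome, fell by nearly the same amount in every line. Its level in Jurkat was 138, 119.5 and 138 TPM in DMSO and 22.4, 20.7 and 20.9 TPM in BRM014. In KOPT-K1 it was 559, 560.1 and 537 TPM in DMSO and 85.7, 94.0 and 79.2 TPM in BRM014. The 6 h change of SASH3 ran from -2.57 in Jurkat to -2.87 in TALL-1, so that each line kept between 13.5 and 16.7% of its DMSO level. TMC8, of the transmembrane channel-like family, had the widest range, from -1.40 in Jurkat to -4.22 in TALL-1, where it was 91.2, 96.1 and 93.0 TPM in DMSO and 4.03, 5.06 and 3.29 TPM in BRM014. The Jurkat change was largest for LOC105369614 (-3.23), an uncharacterised locus, and for SLA (-2.74), an adaptor that lowers T cell receptor levels.

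Genes of T cell receptor signalling were among the 74. Of 48 genes of a list of proximal T cell receptor signalling with at least 1 TPM in DMSO in all lines, 7 were among the 74, namely ZAP70, GRAP2, SLA, SASH3, SIT1, PTPRCAP and CD5. Of all 11835 genes, 0.625% were among the 74. Of 25 such genes of a list of cytokine and chemokine receptors and their signalling, JAK3 was among the 74, the kinase of the receptors that share the common gamma chain. Of the genes on other lists, none of 50 lymphoid transcription factors, 20 cBAF subunits, 28 cytosolic ribosomal protein genes, 9 NOTCH targets, 6 subunits of the related PBAF and ncBAF complexes or 13 mitochondrial mRNAs was. These lists do not hold the 12 genes left out by name, which include the chemokine receptor CXCR4, the transcription factor BCL11B and the NOTCH pathway genes DTX1 and NOTCH3, and they do not hold BATF, a transcription factor that was chosen. The counts therefore cover the listed genes and not every gene of those kinds. Of the 41 genes of the T cell receptor list that were not chosen, 22 lay below 0 in all 4 lines and 4 above 0 in all 4. That is 53.7% and 9.76%, where 20.9% and 35.1% of the 11835 genes were. The lists were drawn up with earlier results of these data known, and the same 6 h values chose the genes. These shares are therefore a description and were not tested.

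The promoters of SASH3, ZAP70, MZB1 and GRAP2 are shown because these 4 genes carry the results below: SASH3 and MZB1 had large falls at 8 d, ZAP70 was called lower in each of the 5 Jurkat comparisons with a control, and GRAP2 fell with the inhibitor but rose in 3 guide groups. Each is the 250 bases before the transcript start, from RefSeq on GRCh38.p14, 5′ to 3′ on the gene's strand. Capitals mark the motifs TGTGGT and TGCGGT (RUNX), CCGGAAG (ETS), CAGCTG and CAGATG (the E-box of TAL1 and E proteins) and CACGTG (the E-box of MYC), on either strand, so that a match to the other strand reads as its reverse complement. None of these motifs overlaps another in the 4 windows. SASH3 lies on the plus strand at chrX:129779699-129779948, ZAP70 on the plus strand at chr2:97713326-97713575, MZB1 on the minus strand at chr5:139389914-139390163, and GRAP2 on the plus strand at chr22:39926354-39926603, a start inside the annotated span of the gene.
SASH3: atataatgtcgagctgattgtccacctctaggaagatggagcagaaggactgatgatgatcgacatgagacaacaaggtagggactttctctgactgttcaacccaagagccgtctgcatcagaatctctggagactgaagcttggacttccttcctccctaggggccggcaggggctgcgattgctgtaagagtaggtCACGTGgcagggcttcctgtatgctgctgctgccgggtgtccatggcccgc
ZAP70: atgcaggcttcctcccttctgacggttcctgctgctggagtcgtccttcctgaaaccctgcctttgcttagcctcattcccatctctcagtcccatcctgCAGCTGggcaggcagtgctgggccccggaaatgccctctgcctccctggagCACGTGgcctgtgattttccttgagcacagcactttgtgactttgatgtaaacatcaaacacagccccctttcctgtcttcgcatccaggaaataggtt
MZB1: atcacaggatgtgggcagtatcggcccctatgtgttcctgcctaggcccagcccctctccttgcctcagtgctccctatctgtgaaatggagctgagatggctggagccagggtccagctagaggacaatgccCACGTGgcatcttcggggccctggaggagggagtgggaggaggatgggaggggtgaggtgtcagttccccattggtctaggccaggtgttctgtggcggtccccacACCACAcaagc
GRAP2: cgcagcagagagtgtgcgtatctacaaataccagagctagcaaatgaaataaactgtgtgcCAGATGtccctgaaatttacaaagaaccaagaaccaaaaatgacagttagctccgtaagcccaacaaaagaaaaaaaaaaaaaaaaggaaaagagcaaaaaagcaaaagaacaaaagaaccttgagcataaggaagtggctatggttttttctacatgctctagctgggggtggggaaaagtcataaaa
The MYC E-box stood in 3 of these 4 windows, and the 4 were picked after their values were seen. Over the 50 of the 74 genes with a promoter in the table, 16% held CACGTG, against 9.31% of 8636 promoters of genes above 1 TPM in DMSO in all lines and 6.49% of 27305 promoters in all. A RUNX motif stood in 16% and 15.4%, an E-box of TAL1 and E proteins in 18% and 18.7%, and an ETS motif in 10% and 18.1%, for the chosen genes and the 8636 in turn. The largest gap in the other direction was NF-Y (CCAAT), with 22% against 36.3%. Their promoters were rich in G and C, with a median of 71% against 64.8% for the 8636 and 58% for all, and the SP/KLF motif GGGCGGG, made of those bases, stood in 60% against 51.5%. These shares describe letters in a window and were not tested. Counted transcript length was similar, with a median of 3566 bases for the 74 genes and 3774 bases for the 11835.

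After 8 d of BRM014 most of the genes were still low in Jurkat. Against DMSO libraries of the same day, 53 of the 74 were called lower, 4 higher and 17 neither, at a limma adjusted p under 0.05 over 17936 genes. All 74 passed the filter for this test, and 23% of all genes tested were called lower and 36.9% higher. The median change of the 74 was -0.66, against 0.076 over all genes tested. The rule held the Jurkat 6 h change of each chosen gene at or below its threshold, and it set no limit on the 8 d change. A weaker median at 8 d can come from that choice alone, so the medians cannot show a recovery over time. Set side by side with no test of the difference, the Jurkat median of the 74 was nearer to no change at 8 d (-0.66) than at 6 h (-1.08). Some genes went the other way. The change was -4.07 at 8 d and -1.93 at 6 h for MZB1, -3.06 and -2.26 for ITGAL, and -3.23 and -1.20 for CDK6-AS1.

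MZB1, a protein of the endoplasmic reticulum known from antibody-secreting cells, had the largest fall of the 74 genes at 8 d on the log2(TPM + 1) scale. It stood at 209, 169 and 164 TPM in the DMSO libraries of that day and at 8.95, 10.2 and 10.2 TPM in BRM014, a change of -4.07 ± 0.073 (limma, adjusted p = 1.4e-20). No library of one group came near the other, and the mean was 5.41% of control, where the 6 h mean had been 25.9%. As a share of control, LINC01226, listed at 0, and LOC112268426, at 4.77%, were lower still. ITGAL, the alpha subunit of the integrin LFA-1 with which T cells bind other cells, was 18.2, 16.3 and 19.1 TPM in DMSO and 1.40, 1.07 and 1.30 TPM in BRM014. That was a change of -3.06 ± 0.12 (limma, adjusted p = 3.8e-15), again without overlap.

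SASH3 stood at 94.5, 116 and 113 TPM in DMSO and 19.5, 17.0 and 18.8 TPM in BRM014 at 8 d, a change of -2.49 ± 0.071 (limma, adjusted p = 2.8e-17). Its 8 d level in BRM014 was close to the 6 h level given above. ZAP70, the kinase that binds the phosphorylated receptor, fell less, from 54.6, 50.4 and 46.4 TPM to 33.4, 31.1 and 31.5 TPM (-0.64 ± 0.059, adjusted p = 4.8e-09). The inhibitory adaptor SIT1 changed by -0.82 ± 0.085, the inhibitory receptor PVRIG by -1.07 ± 0.079 and CD5 by -0.90 ± 0.054, and all 3 were called lower with treated libraries below every control library. JAK3 changed by only -0.33 ± 0.12 (adjusted p = 0.026), and this call was lost without replicate 2 of the 8 d BRM014 libraries (adjusted p = 0.095) or without replicate 1 or 3 of the DMSO libraries (0.083 and 0.052).

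**Figure D2:**
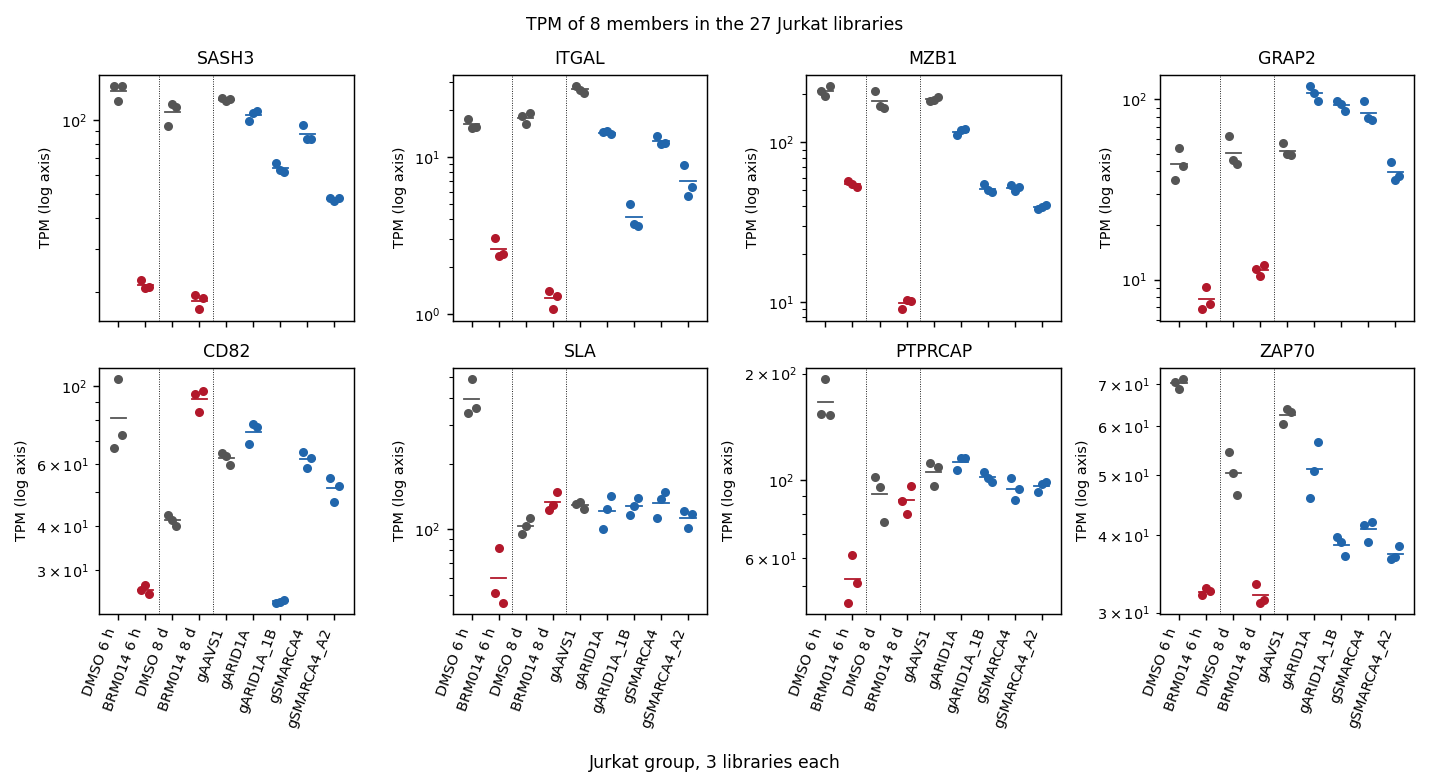
TPM on a log axis (y) of 8 of the genes in 9 Jurkat groups (x), with 1 dot per library and a bar at the mean, grey for DMSO or gAAVS1, red for BRM014 and blue for guides against cBAF subunits. The means of SASH3, ITGAL and MZB1 lie below their control in every treated group, GRAP2 is above its control in 3 guide groups, CD82 is above its control at 8 d, and the DMSO level of SLA differs between 6 h and 8 d.

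By role, 7 of 11 signalling genes were called lower at 8 d and none higher, and 5 of 10 adhesion and cytoskeleton genes were called lower and 2 higher. Of 7 channels and transporters 5 were called lower, of 6 DNA-binding or transcription proteins 5, of 6 enzymes 4, and of 9 genes of secretion and vesicle traffic 6. All but 1 of 10 non-coding or uncharacterised loci were called lower, with a median of -1.07. Some of these loci stood close to a protein-coding chosen gene, so the 10 cannot be read as independent falls. As a share of DMSO at 8 d, LOC105369614 was at 7.67% and KCNA6 at 7.78%, and LOC107986083 at 47.8% and LZTFL1 at 50.1%. LOC107985040 was at 95.6% and FMNL1 at 98.5%, and MIR4649 at 50.8% and AEBP1 at 55.6%. Whether such rows count the same reads was not tested. The 4 genes best known from neurons (LRFN1, LRFN4, SLIT1 and LRP8) had 3 called lower. Of 11 other genes 9 were called lower and 1 higher, and among these TEX19, a gene of germ cells, changed by -2.49 ± 0.17. Beside these counts, 71.6% of all 74 genes were called lower at 8 d and 5.41% higher. Over all genes tested the shares were 23% and 36.9%. These role groups are small and were drawn up with the values known, and differences between them were not tested.

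Adhesion and cytoskeleton genes split at 8 d. Filamin A (FLNA), which crosslinks actin, went from 53.8, 44.3 and 44.4 TPM to 19.7, 20.4 and 20.4 TPM (-1.19 ± 0.069, adjusted p = 3.1e-12). The actin adaptor PSTPIP1 changed by -1.22 ± 0.11 and the selectin ligand SELPLG by -0.34 ± 0.087. By contrast the formin FMNL1 stood at 41.4, 36.0 and 36.1 TPM in DMSO and 39.5, 34.8 and 37.4 TPM in BRM014, overlapping groups with a change of -0.02 ± 0.06 (adjusted p = 0.79). FERMT3, a kindlin that activates integrins, was at 0.015 ± 0.067 and the coronin CORO1B at 0.15 ± 0.079, neither called. The potassium channel KCNA6 was 14.9, 8.91 and 7.70 TPM in DMSO and 0.756, 0.951 and 0.746 TPM in BRM014, whereas ORAI1, the pore of the store-operated calcium channel, changed by 0.0027 ± 0.078 with an adjusted p of 0.98.

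At 8 d, 4 of the 74 genes were called higher, against their fall at 6 h. The tetraspanin CD82 stood at 43.2, 41.8 and 40.0 TPM in the 8 d DMSO libraries and 94.8, 84.7 and 97.0 TPM in BRM014, a rise of 1.13 ± 0.10 (limma, adjusted p = 6e-09). At 6 h it had been 66.7, 105 and 72.8 TPM in DMSO and 26.4, 27.2 and 25.7 TPM in BRM014. The DMSO libraries of 6 h and 8 d do not overlap for CD82 and are lower at 8 d. The LIM domain protein LIMD2 rose by 0.89 ± 0.12 (adjusted p = 1.3e-06), the acyltransferase AGPAT2 by 0.53 ± 0.16 (0.0077), and PDLIM2, a PDZ and LIM domain protein of the cytoskeleton, by 0.52 ± 0.078 (5.2e-06). Every BRM014 library of these 3 genes lay above every DMSO library of that day.

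SLA did not pass the test at 8 d. It was 95.1, 104 and 113 TPM in DMSO and 123, 129 and 149 TPM in BRM014, a change of 0.36 ± 0.18 (adjusted p = 0.088), after 343, 490.0 and 358 TPM and 50.9, 82.4 and 46.1 TPM at 6 h. Its DMSO level was thus far lower at 8 d than at 6 h, while the BRM014 level was higher. PTPRCAP, which binds the phosphatase CD45, was 102, 95.7 and 75.8 TPM in DMSO and 87.0, 80.2 and 96.2 TPM in BRM014 at 8 d, groups that overlap. PTPRCAP, SLA and SNAP29, a fusion protein of vesicles, were the 3 of the 74 genes called neither lower nor higher at 8 d or in any guide group against gAAVS1. How many of all genes tested stayed uncalled throughout was not counted.

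**Figure D3:**
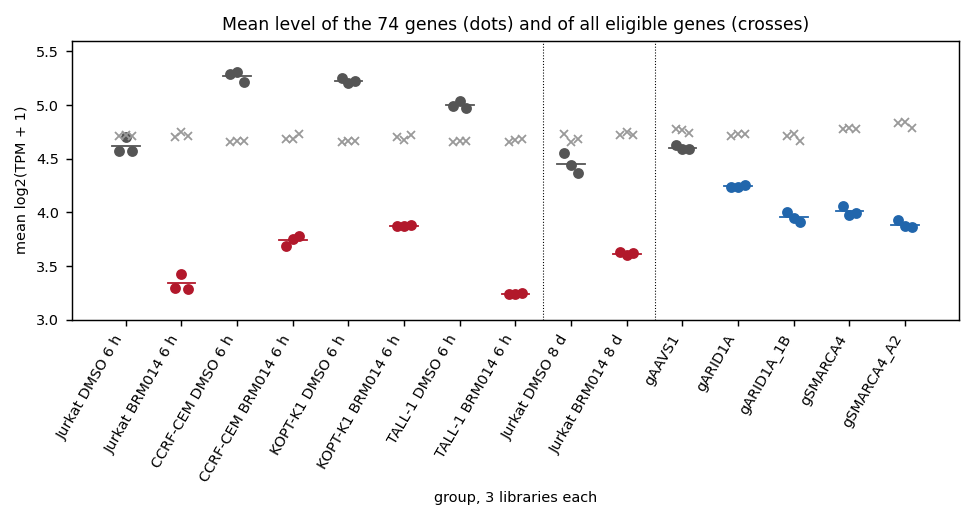
Mean log2(TPM + 1) per library (y) in 15 groups of 3 (x), over the 74 genes as dots with a bar at the group mean and over the 11835 eligible genes as crosses. The mean of the 74 lies lower in each BRM014 group than in its DMSO group and lower in each guide group than in gAAVS1, while the crosses stay between 4.65 and 4.84; the 8 left groups chose the genes.

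The 4 guide groups were each compared with the same 3 gAAVS1 libraries, so their calls are not independent of each other. In gARID1A 40 of the 74 genes were called lower and 5 higher (limma, adjusted p under 0.05), where 13.2% of all genes tested were called lower and 7.72% higher. In gARID1A_1B 47 were called lower and 3 higher, against 23.1% and 17% of all genes. In gSMARCA4 it was 48 lower and 4 higher, against 15.8% and 25.1%. In gSMARCA4_A2 it was 61 lower and 3 higher, against 21.1% and 40.9%. Median changes of the 74 were -0.25, -0.63, -0.45 and -0.61 in that order, beside -0.026, -0.026, 0.037 and 0.11 over all genes tested. With 1 library left out, 31 to 35 genes were called lower in gARID1A.

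**Figure D4:**
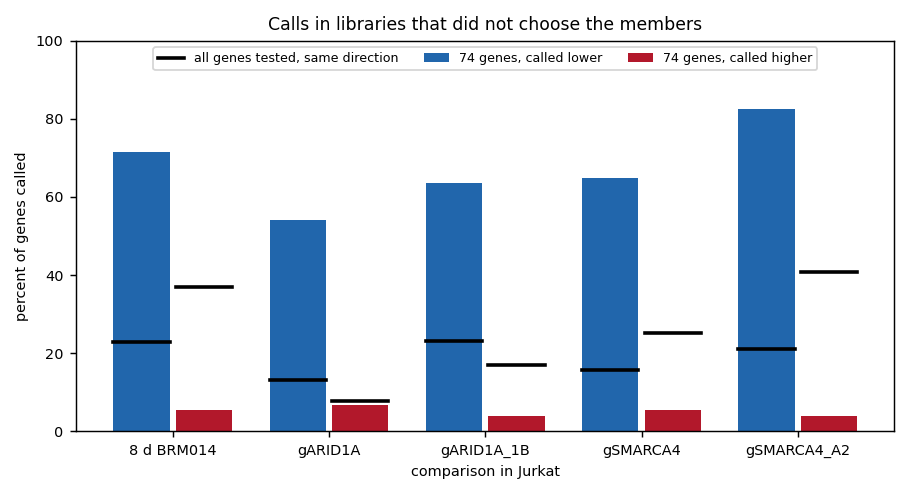
Percent of the 74 genes called lower (blue bars) and higher (red bars) in 5 Jurkat comparisons (x) that did not choose them, with a black line at the percent of all 17936 genes tested that were called in the same direction. Blue bars run from 54.1% in gARID1A to 82.4% in gSMARCA4_A2, above their lines of 13.2 to 23.1%, and red bars lie at or below 6.76%.

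Levels of the signalling and adhesion genes in the guide groups were as follows. SASH3 was 122, 119 and 122 TPM in gAAVS1, 66.6, 62.5 and 61.5 TPM in gARID1A_1B and 48.3, 46.8 and 48.1 TPM in gSMARCA4_A2. No library of those guide groups overlapped gAAVS1, and the changes were -0.92 ± 0.071 (adjusted p = 1e-09) and -1.32 ± 0.071 (1.4e-12). With gARID1A the change was -0.21 ± 0.071 (adjusted p = 0.041), a call that was lost without any 1 of the 6 libraries (adjusted p 0.055 to 0.15). ZAP70 was 60.5, 64.0 and 63.2 TPM in gAAVS1, 45.9, 50.7 and 56.6 TPM in gARID1A and 41.6, 39.0 and 42.0 TPM in gSMARCA4, and changed by -0.29, -0.69, -0.60 and -0.73 in gARID1A, gARID1A_1B, gSMARCA4 and gSMARCA4_A2, all called lower.

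ITGAL differed between the guide groups. It was 28.5, 26.7 and 25.8 TPM in gAAVS1, 14.4, 14.7 and 14.0 TPM in gARID1A and 5.05, 3.72 and 3.65 TPM in gARID1A_1B. In gSMARCA4 it was 13.7, 12.2 and 12.3 TPM and in gSMARCA4_A2 8.94, 5.64 and 6.41 TPM. Every guide library lay below every control library. The direct comparison of gARID1A_1B with gARID1A gave -1.59 ± 0.12 (limma, adjusted p = 2.1e-09), and that of gSMARCA4_A2 with gARID1A_1B gave 0.63 ± 0.12 (0.00011), so ITGAL was lowest in gARID1A_1B.

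MZB1 was 182, 184 and 193 TPM in gAAVS1, 111, 119 and 121 TPM in gARID1A, 54.6, 50.5 and 48.5 TPM in gARID1A_1B, 53.9, 49.9 and 52.1 TPM in gSMARCA4 and 38.4, 39.1 and 40.7 TPM in gSMARCA4_A2. The gARID1A_1B and gSMARCA4 groups overlapped each other and no other pair did, and the change in gSMARCA4_A2 was -2.21 ± 0.073 (adjusted p = 1.1e-15). Within cells given guides the level stayed above that of 8 d of BRM014 (8.95, 10.2 and 10.2 TPM), a comparison across groups with other controls that was not tested. TEX19 was at 16.3, 16.1 and 16.4 TPM in gAAVS1, 9.20, 9.34 and 9.29 TPM in gARID1A_1B and 2.39, 2.85 and 2.22 TPM in gSMARCA4. It fell by more with ATPase guides than with ARID1 guides, with -1.21 ± 0.17 for gSMARCA4_A2 against gARID1A_1B (adjusted p = 4.4e-06).

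RFX8 and LZTFL1 had some of the deepest falls in gARID1A. RFX8, of the RFX family of DNA-binding proteins, was 3.58, 4.03 and 3.81 TPM in gAAVS1 and 0.272, 0.220 and 0.245 TPM in gARID1A. LZTFL1, which controls protein traffic to cilia, was 41.8, 42.6 and 32.5 TPM in gAAVS1 and 13.7, 10.9 and 11.0 TPM in gARID1A, with 17.0, 16.8 and 16.4 TPM in gSMARCA4_A2. Both fell in gARID1A without overlap, with changes of -1.95 ± 0.10 (adjusted p = 1.5e-11) for RFX8 and -1.63 ± 0.089 (2e-11) for LZTFL1. The comparison of gARID1A_1B with gARID1A gave -0.13 ± 0.10 (adjusted p = 0.44) and -0.14 ± 0.089 (0.28), neither called. For RFX8 the low TPM in the guide groups makes the log2(TPM + 1) scale understate the fold.

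GRAP2, the adaptor GADS that links membrane adaptors to the signalling scaffold below the T cell receptor, moved in opposite directions. It was 57.3, 49.5 and 49.0 TPM in gAAVS1 but 119, 109 and 98.2 TPM in gARID1A, 97.8, 94.5 and 86.4 TPM in gARID1A_1B and 97.5, 78.4 and 76.9 TPM in gSMARCA4. All libraries of these 3 groups lay above all gAAVS1 libraries, with rises of 1.05 ± 0.14 (adjusted p = 1.9e-05), 0.83 ± 0.14 (0.00011) and 0.68 ± 0.14 (0.0007). In gSMARCA4_A2 it was 44.8, 35.9 and 37.5 TPM, a change of -0.39 ± 0.14 (adjusted p = 0.023) that was no longer called without replicate 2 or 3 of gSMARCA4_A2 or replicate 1 of gAAVS1 (adjusted p 0.067 to 0.095). The direct comparison of gSMARCA4_A2 with gSMARCA4 gave -1.08 ± 0.14 (limma, adjusted p = 9.7e-06), with every gSMARCA4_A2 library lower. With BRM014 at 8 d GRAP2 was 62.4, 46.0 and 43.7 TPM in DMSO and 11.4, 10.5 and 12.1 TPM in BRM014, a change of -2.05 ± 0.14 (adjusted p = 1.6e-10).

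CD5 and CHST2 shared parts of this pattern. CD5 was 38.5, 36.3 and 38.8 TPM in gAAVS1, 58.1, 62.0 and 62.4 TPM in gARID1A_1B and 31.7, 30.3 and 31.4 TPM in gSMARCA4_A2. It rose by 0.67 ± 0.054 in gARID1A_1B (adjusted p = 1.8e-09) and was called lower in gSMARCA4_A2, with a change of -0.27 ± 0.054 (0.00014), in each case without overlap. The sulfotransferase CHST2 was 16.0, 15.2 and 16.3 TPM in gAAVS1, 28.8, 22.9 and 22.8 TPM in gSMARCA4 and 11.4, 10.6 and 9.92 TPM in gSMARCA4_A2. Its change was 0.61 ± 0.085 (adjusted p = 5.1e-06) in gSMARCA4 and -0.53 ± 0.085 (1.2e-05) in gSMARCA4_A2, and the direct comparison of these groups gave -1.15 ± 0.085 (3.2e-09). PALM2AKAP2, a fusion locus of PALM2 and the kinase anchor AKAP2, was at 0.53 in gARID1A and 0.53 in gSMARCA4, both called higher, and at -0.24 in gSMARCA4_A2 and -0.72 at 8 d, both called lower. The gSMARCA4_A2 call of PALM2AKAP2 was lost without replicate 2 or 3 of that group or replicate 1 of gAAVS1.

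CD82 went down in gARID1A_1B and up at 8 d. It was 64.5, 63.6 and 59.7 TPM in gAAVS1 and 24.3, 24.4 and 24.8 TPM in gARID1A_1B, a fall with a change of -1.32 ± 0.10 (limma, adjusted p = 1.6e-09), whereas gARID1A had 68.5, 77.9 and 76.7 TPM and an uncalled change of 0.24 ± 0.10. The direct comparison of those groups gave -1.56 ± 0.10 (adjusted p = 4.9e-10). In gSMARCA4_A2 the change was -0.28 ± 0.10 (adjusted p = 0.023), and this call was lost without replicate 2 of that group or replicate 1 or 2 of gAAVS1. LIMD2 was higher in gSMARCA4_A2, at 25.4, 24.1 and 23.2 TPM against 16.8, 14.3 and 14.9 TPM in gAAVS1 (0.63 ± 0.12, adjusted p = 9.4e-05), as it was at 8 d.

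The 8 d comparison and the guide comparisons have separate controls. Of the 53 genes lower at 8 d, 33 were lower in gARID1A, which is 62.3% of the 53 and 82.5% of the 40. For gARID1A_1B it was 39 (73.6% and 83.0%), for gSMARCA4 44 (83.0% and 91.7%) and for gSMARCA4_A2 51 (96.2% and 83.6%). Beside these, 54.1%, 63.5%, 64.9% and 82.4% of all 74 genes were lower in the guide groups in that order and 71.6% at 8 d, the shares that an overlap with no relation would come near. Genes lower at 8 d but higher with guides were CD5, GRAP2, PVRIG and PALM2AKAP2 in gARID1A, then CD5, GRAP2 and CHST2 in gARID1A_1B, then GRAP2, CHST2 and PALM2AKAP2 in gSMARCA4, and only the potassium chloride cotransporter SLC12A7 in gSMARCA4_A2. SLC12A7 rose there by 0.28 ± 0.075, and after median-ratio rescaling it was 0.12 with an adjusted p of 0.17. Across the 74 genes the changes at 8 d and with guides had a Pearson r of 0.47 for gARID1A, 0.64 for gARID1A_1B, 0.74 for gSMARCA4 and 0.89 for gSMARCA4_A2. These correlations are across genes, which are not independent replicates, in 1 line with 1 library kit. Neither the correlations nor the overlaps were computed over all genes tested, so whether they are particular to the 74 is not known.

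**Figure D5:**
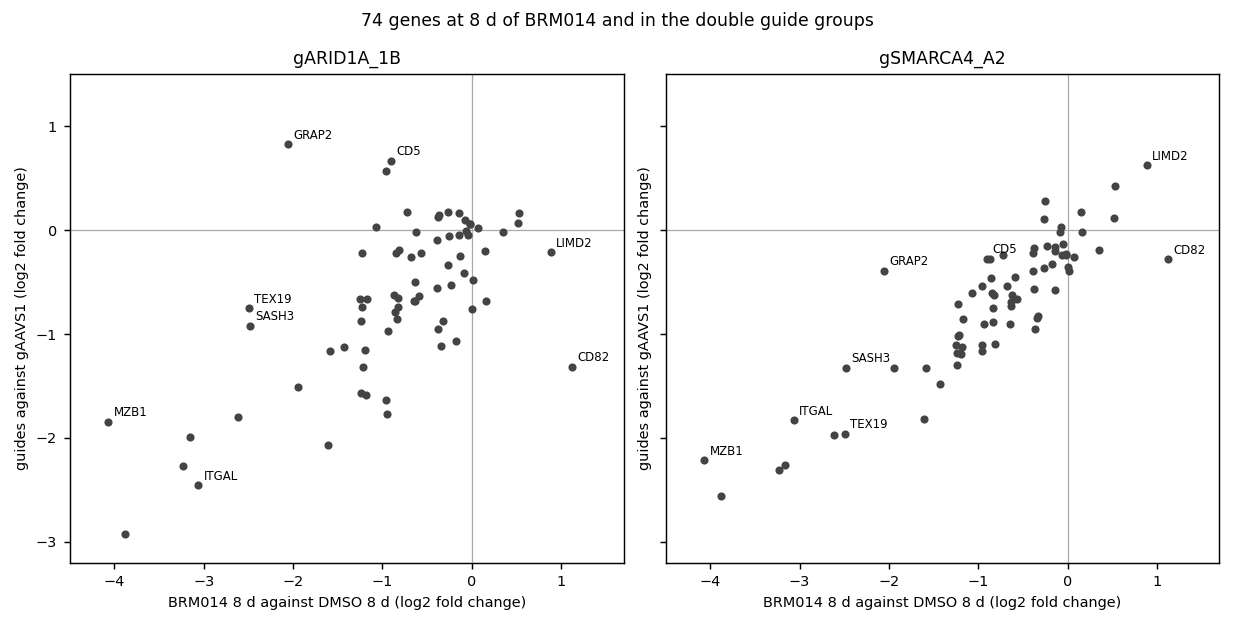
Change of the 74 genes at 8 d of BRM014 (x, log2 fold change) against their change in gARID1A_1B (left) and gSMARCA4_A2 (right; y, log2 fold change against gAAVS1), with 1 dot per gene. GRAP2 and CD5 lie above 0 on the left and below 0 on the right, and CD82 lies far to the right of 0 in both panels.

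Guide groups were also compared directly. Against gARID1A, 34 of the 74 genes were called lower in gARID1A_1B and 6 higher, where 10.6% and 10.3% of all genes were. Against gSMARCA4, 27 were called lower in gSMARCA4_A2 and 5 higher, where 12.3% and 26.5% of all genes were. Against gARID1A_1B, 26 were called lower in gSMARCA4_A2 and 23 higher, where 14% and 43.2% of all genes were. This last split moved to 39 lower and 12 higher when libraries were rescaled by median ratios. Of all 17847 genes tested after rescaling, 5227 were called lower and 4287 higher. SASH3 was lower in gSMARCA4_A2 than in gSMARCA4 (-0.86 ± 0.071, adjusted p = 1.5e-08) and than in gARID1A_1B (-0.40 ± 0.071, 5.7e-05). TMC8 was the reverse, lower in gARID1A_1B (19.2, 16.9 and 15.8 TPM) than in gSMARCA4_A2 (31.0, 29.2 and 28.7 TPM), with 0.75 ± 0.10 (adjusted p = 2.6e-06). The small GTPase RAB43 changed by -0.74 in gARID1A and -0.68 in gARID1A_1B, both called lower, and by -0.021 in gSMARCA4_A2, not called. BATF, an AP-1 family factor, was at -0.95 in gSMARCA4_A2 (called lower) and 0.14 in gARID1A_1B (not called), and the direct comparison gave -1.09 ± 0.092 (adjusted p = 3.2e-09).

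Non-coding and uncharacterised loci held some of the most uniform falls. CDK6-AS1, an RNA antisense to the cell cycle kinase gene CDK6, was 29.5, 26.2 and 26.9 TPM in DMSO and 2.15, 1.80 and 2.15 TPM in BRM014 at 8 d. In the guide groups it changed by -1.92, -2.27, -2.44 and -2.31 in gARID1A, gARID1A_1B, gSMARCA4 and gSMARCA4_A2, all called. LOC112268426 was 36.1, 40.1 and 39.5 TPM in gAAVS1, 11.9, 13.1 and 13.7 TPM in gARID1A and 4.00, 4.12 and 4.57 TPM in gARID1A_1B, with -1.41 ± 0.099 between the last groups (adjusted p = 1e-09). LINC01226 was listed at 0 in all 3 BRM014 libraries at 8 d, beside 4.40, 2.65 and 1.90 TPM in DMSO. In Jurkat libraries, which do not keep strand, reads of an antisense RNA such as CDK6-AS1 cannot be told apart from those of its partner gene where they overlap.

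Of the 74 genes, 70 matched a RefSeq entry on GRCh38.p14, 63 as protein coding, 5 as long non-coding RNA, 1 as a microRNA and 1, ORAI1, as a transcribed pseudogene in that table. They were spread over the genome, with 9 on chromosome 11 and 7 each on chromosomes 1 and 7. Among these 70, members overlap in 3 places. LOC105369614, LOC107985040, LOC112268426 and LOC107986083 were not placed, and their overlap was not checked. In gARID1A, LOC105369614 stood at 63.35% of gAAVS1 and KCNA6 at 63.73%, and LOC107986083 at 30.6% and LZTFL1 at 30.47%. At 6 h in KOPT-K1, LOC105369614 and KCNA6 lay further apart, at 7.15% and 16.4% of DMSO. MIR4649 (chr7:44110849-44110912) lies within AEBP1 (chr7:44104345-44114560), and its row counts poly(A) reads over the hairpin, not the mature microRNA; at 8 d AEBP1 changed by -0.83 ± 0.079 and MIR4649 by -0.94 ± 0.19. PTPRCAP (chr11:67435510-67437682) shares its end with CORO1B (chr11:67435510-67443809). LOC105378230 overlaps CCDC69 on the opposite strand on chromosome 5, and in Jurkat, without strand, their reads cannot be told apart where they overlap. At 8 d LOC105378230 changed by -1.19 ± 0.18 and CCDC69 by -0.23 ± 0.14, not called. The CCDC69 mean was only 0.475 TPM in DMSO and 0.254 TPM in BRM014 at 8 d, so its change is compressed on this scale. TNKS1BP1 and SLC43A3 lie 82 kb apart on chromosome 11.

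Of 48 tested genes of the T cell receptor list that were not chosen, 19 were called lower and 22 higher at 8 d, with a median of 0.14. These are 39.6% and 45.8% of the 48, beside 23% and 36.9% of all genes tested. In the guide groups 14 of the 48 were lower and 9 higher in gARID1A, 24 and 11 in gARID1A_1B, 22 and 13 in gSMARCA4, and 21 and 13 in gSMARCA4_A2. The shares called lower were 29.2%, 50%, 45.8% and 43.8% in that order, where 13.2%, 23.1%, 15.8% and 21.1% of all genes tested were. The shares called higher were 18.8%, 22.9%, 27.1% and 27.1%, where 7.72%, 17%, 25.1% and 40.9% of all genes tested were. Of 37 genes of the cytokine and chemokine receptor list that were not chosen, 11 were lower and 20 higher at 8 d, which is 29.7% and 54.1%. The difference between chosen and other genes of a list was not tested.

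Library depth was 29.7 to 47.9 M reads (M, 1e+06) for Jurkat and 19.7 to 27 M for the rest. T-lineage markers had a summed level of 1400 to 2216 TPM in Jurkat and 2941 to 4035 TPM in the other lines, but not every marker was high. In DMSO at 6 h CD2 was 4.98 TPM in Jurkat and 3.34 TPM in CCRF-CEM, and PTCRA was below 1 TPM in Jurkat and TALL-1. In CCRF-CEM with BRM014, 8 of the 9 markers reached 1 TPM. No single list of markers, of B cells, of myeloid cells, of erythroid cells or of epithelium and fibroblasts, summed to more than 27.9 TPM in any library. Guides changed the RNA of their targets only in part: SMARCA4 was 97.5 ± 2.41 TPM (SD, n = 3) in gAAVS1, 44.2 ± 1.63 TPM in gSMARCA4 and 49.9 ± 2.35 TPM in gSMARCA4_A2, and ARID1B was 22.7 ± 0.525 TPM in gAAVS1 and 11.9 ± 0.993 TPM in gARID1A_1B. ARID1A was 94.4 ± 0.697 TPM in gAAVS1, 83.1 ± 3.38 TPM in gARID1A and 101 ± 5.07 TPM in gARID1A_1B, and SMARCA2 was 21.8 ± 0.931 TPM in gAAVS1 and 22.4 ± 0.288 TPM in gSMARCA4_A2, so the RNA of ARID1A and SMARCA2 gave no clear check of those guides. Protein was not analysed here. Median-ratio rescaling moved the median of all genes from 0.11 to -0.033 in gSMARCA4_A2 and from 0.16 to -0.0088 for gSMARCA4_A2 against gARID1A_1B, and the share of lower calls among all calls from 38.4 to 51.2% at 8 d, 63.1 to 49.5% in gARID1A, 38.6 to 49.3% in gSMARCA4, 34.1 to 54.8% in gSMARCA4_A2, 31.7 to 61.5% for gSMARCA4_A2 against gSMARCA4 and 24.5 to 54.9% for gSMARCA4_A2 against gARID1A_1B.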

How the data were processed

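Poly(A) RNA of 4 T-ALL lines was sequenced in 45 libraries, in 15 groups of 3 labelled biological replicates. Groups were taken from the labels. Per the submitters' processing notes, reads were processed with HISAT2 2.2.1, featureCounts 2.0.3 and DESeq2 1.38.2 on hg38. The authors deposited TPM for 38557 genes, with Jurkat in 1 table and the remaining lines in another, and beside it the deposited files hold each gene's counted length in bases, a column of another unit. Since TPM is a share of the library, a change of abundant transcripts moves the values of the rest. Levels of Jurkat and of the other lines come from separate tables and kits and were not tested against each other.

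TPM times length gave whole reads within 0.01 for 100% of values, which gave the depth. Mitochondrial mRNAs made up 20 to 24.9% of Jurkat TPM and 4.99 to 8.04% elsewhere. Replicates differed by more than counting noise (chi-square per degree of freedom 2.48 to 44.3). The 6 h change of a gene is the difference of mean log2(TPM + 1), with no test. Jurkat genes reaching 1 TPM in 3 or more libraries (17936) entered limma 3.58.1 in R 4.3.3 on the same scale (lmFit, contrasts, eBayes with trend and robust), with all 9 Jurkat groups in 1 fit and 18 residual degrees of freedom. Errors are limma's standard errors, p-values are Benjamini-Hochberg adjusted over all genes tested, and the threshold was 0.05. The script was tested on simulated data. Promoters and positions came from RefSeq tables on GRCh38.p14. Figures were drawn in Python 3.11.15.

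The 74 genes, the lists and the tests were chosen with earlier results of these data known. Genes were named by rule: the 12 lowest means of the 4 lines at 6 h, the 3 nearest inside and outside the threshold, the largest called changes without overlap in each comparison (up to 8 a direction at 8 d and 3 elsewhere), up to 6 genes called lower throughout or in opposite directions at 8 d and in gSMARCA4_A2, up to 3 members of each list by 6 h change, and the 4 targeted genes. Other genes are named for their role, after their values were seen. Alternatives were a pseudocount of 0.1, no filter or a filter of 5 TPM, median-ratio rescaling, mitochondrial genes left out, plain eBayes, a fit of the compared groups only, the replicate number as a block, a change of at least 1, limma-voom on the recovered reads, other thresholds for the choice of genes, and each library left out in turn. The result of a further gene list is not reported here.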

Additional observations from a re-analysis of the deposited data

Results flagged for a closer look

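For 5 of the 74 genes, every Jurkat BRM014 library lay below every DMSO library at 6 h and above every DMSO library at 8 d. The rule made the 6 h part likely for any chosen gene. How many of all genes tested lay above in this way at 8 d was not counted. At 8 d 36.9% of all genes tested were called higher, so the 5 are not shown to be unusual. The difference between the times was not tested, since the 6 h libraries chose the genes. The change on the log2(TPM + 1) scale was -1.56 at 6 h and 1.13 at 8 d for CD82, a tetraspanin of the cell surface. It was -0.91 and 0.89 for the LIM domain protein LIMD2, -1.09 and 0.53 for the acyltransferase AGPAT2, and -0.88 and 0.52 for PDLIM2, which binds the actin cytoskeleton. For SLA, an adaptor that dampens the T cell receptor, it was -2.74 and 0.36, and the 8 d value did not pass the test.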

How the results depend on the processing

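The counts of genes called lower stayed within 1.5 times under every alternative except a required change of at least 1. With it, called lower and higher were 23 and 1 at 8 d, 9 and 1 in gARID1A, 19 and 0 in gARID1A_1B, 19 and 0 in gSMARCA4, and 22 and 0 in gSMARCA4_A2, and 6, 2 and 5 genes were called for gARID1A_1B against gARID1A, gSMARCA4_A2 against gSMARCA4 and gSMARCA4_A2 against gARID1A_1B. The share of all genes tested that met this limit is not given here, so these counts have no background beside them. The median change at 8 d was -0.78 with a pseudocount of 0.1, -0.73 with median-ratio rescaling, -0.72 without mitochondrial genes and -0.91 with limma-voom. In gARID1A it was -0.21 with a filter of 5 TPM and -0.21 with rescaling, in gSMARCA4 -0.56 with limma-voom, and in gSMARCA4_A2 -0.64, -0.75 and -0.77 with the pseudocount, rescaling and limma-voom. Counts called higher were 8 in gARID1A with only the groups compared, 6, 5, 5 and 6 in gARID1A_1B with rescaling, without mitochondrial genes, with only the groups compared and with limma-voom, and 1 in gSMARCA4_A2 with rescaling. The rule chose 114 genes with a pseudocount of 0.1, 183 at a threshold of -0.6 and 32 at -1. The cause of these shifts was not tested, except that a stricter or looser threshold keeps fewer or more genes.

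With each library left out in turn the rule chose 72 to 81 genes. Called lower were 52 to 53 at 8 d, 31 to 35 in gARID1A, 45 to 48 in gARID1A_1B, 45 to 48 in gSMARCA4 and 56 to 60 in gSMARCA4_A2. Called higher were 4 to 5, 3 to 7, 3 to 3, 4 to 4 and 2 to 3. Without replicate 3 of gARID1A, 3 genes were called higher there. Medians ran from -0.74 to -0.62, -0.29 to -0.21, -0.64 to -0.55, -0.49 to -0.42 and -0.61 to -0.59. The direct comparisons gave 28 to 33, 23 to 29 and 40 to 46 calls. No named gene turned its direction while called. Of 183 called results of named genes, 29 lost the call under at least 1 alternative other than a required change of at least 1, under which 114 lost it.

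Replicate numbers were not taken to pair the libraries, since no comparison had every correlation between libraries of the same number above 0.1. They ran from -0.084 to 0.0015 at 8 d and from -0.014 to 0.22 over the comparisons of guide groups. As a hint from the data, a library matched best with its own number in 3 of 3 cases for gARID1A_1B, 2 of 3 for each other comparison of guide groups and 0 of 3 at 8 d. With the replicate block, 53, 45, 50, 50 and 62 genes were called lower and 6, 6, 4, 6 and 3 higher, in the order above.

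The 4 guide comparisons share 3 control libraries, 8 d and guides were measured in Jurkat alone, and a gene listed near 1 TPM has a compressed change on this scale.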
